A study of Mus musculus with 34 samples.

Results

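The interferon regulatory factors (IRFs) are transcription factors that share a helix-turn-helix DNA-binding domain, and 7 of them were followed here through their transcripts, *Irf1*, *Irf2*, *Irf3*, *Irf5*, *Irf7*, *Irf8* and *Irf9*. They were taken by gene name from a table of read counts with 13108 gene rows, in which all 7 were found; family members outside these 7 were not analysed here. RNA had been sequenced from samples of 100 sorted hematopoietic stem cells (HSCs; lineage-negative, c-Kit+ Sca-1+ CD48- CD150+ bone marrow cells) of C57BL/6 mice by SMART-Seq2, which copies whole polyadenylated transcripts from small samples. All mice carried a floxed *Ythdf2* allele into which GFP had been placed behind the start codon. In *Ythdf2* CKO mice (conditional knockout) *Vav-iCre*, a Cre driven in blood-forming cells from development on, removes part of *Ythdf2*, the gene for a reader of N6-methyladenosine that promotes the decay of methylated mRNA. *Ythdf2* CTL mice had no Cre. The groups were 4 CTL and 4 CKO young mice and 4 CTL and 5 CKO mice aged 1 year, with 2 libraries, A and B, per mouse. Libraries of young and of 1-year mice carry different run names, so age and run cannot be told apart.

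IRFs bind GAAA repeats in the interferon-stimulated response element (ISRE) of their target genes. IRF3, IRF5 and IRF7 lie inactive in the cytoplasm until sensors of foreign nucleic acid or Toll-like receptors lead to their phosphorylation, upon which they enter the nucleus and switch on type I interferon genes. IRF9 is the DNA-binding subunit that joins a pair of STAT proteins below the interferon receptors, IRF1 is induced by interferon-γ, IRF2 occupies the sites of IRF1 and mostly opposes it, and IRF8 directs monocyte and dendritic cell development. Interferon drives resting HSCs into division, and IRF2 is known to protect HSCs from that signal.

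Library totals were between 1859784 and 7784627 counts (median 3038180) in the 33 libraries used, and the shallow library CTL 99 B (187034 counts) stayed out. Levels are given as CPM, TMM-scaled counts per mouse at a common library size, with both libraries summed; SE is a standard error on the log2 scale, and adjusted p comes from edgeR's quasi-likelihood test over all genes unless another test is named. *Ythdf2* was 56.0 ± 4.03 CPM in young CKO and 108.4 ± 15.1 CPM in young CTL mice (SD, n = 4 each), a log2 fold difference of -0.95 (adjusted p = 0.0406). In 1-year mice the labels and *Ythdf2* went against each other in 2 animals. The mouse labelled CKO 121 had 185.7 CPM, the highest of the 9, and the mouse labelled CTL 124 had 71.3 CPM, the lowest. The 1-year genotype differences of the members and of the genes around them are therefore given with and without these mice. The remaining 1-year mice had 77.3 ± 7.03 CPM (SD, n = 4 CKO) against 160.6 ± 18.3 CPM (SD, n = 3 CTL). All 12 HSC markers of a fixed list were detected in every group, and their summed level was between 1798 and 3366 CPM.

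The genes lie apart in the genome, and reads of several of them meet another gene. In the GENCODE annotation (GRCm38, also the build of the alignment), *Irf1* spans chr11:53770014-53778374, *Irf2* chr8:46739732-46847458, *Irf3* chr7:44997648-45002848, *Irf5* chr6:29526625-29541871, *Irf7* chr7:141262706-141266481 (minus strand), *Irf8* chr8:120736358-120756694 and *Irf9* chr14:55603571-55610030. Exons of *Irf5* share 14.1% of their bases with *Tnpo3* on the other strand. For *Irf1*, *Irf3*, *Irf7* and *Irf9* the bases shared with *Gm17334*, *Bcl2l12*, *Phrf1* and *Rnf31* came to between 1.19% and 3.4% of the exons, and *Irf2* and *Irf8* shared none. Of these genes, *Rnf31* lies on the same strand as *Irf9*, and the others lie on the opposite strand. The kit does not keep the strand, so reads from bases shared across strands cannot be assigned. For bases shared with *Rnf31* the strand would not tell the genes apart.

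The start regions of the 7 genes differ in the letters that interferon factors read. RefSeq windows (GRCm38.p6) from 250 bases before to 50 after the start were found for all 7 genes and searched on both strands for a pair of IRF half-sites, which is GAAA followed after any 2 bases by GAAA again, and for the interferon-γ-activated site bound by STAT dimers, which is TTC followed after any 3 bases by GAA. The first was in 1 of the 7 windows, that of *Irf2*, and in 3.44% of all 32851 windows, and the second was in the windows of *Irf1*, *Irf2* and *Irf8* and in 8.3% of all windows. Shown are parts of the windows of *Irf7*, the member with the largest difference in young mice, *Irf1* and *Irf2*, on the strand of the gene, with matches in capitals. Each part ends before the annotated transcripts of its own gene, and coding exons of other genes were not excluded. That of *Irf2* was cut to 60 bases, the part of its window that holds its 2 matches, which do not overlap.
*Irf7*, chr7:141266500-141266674, minus strand: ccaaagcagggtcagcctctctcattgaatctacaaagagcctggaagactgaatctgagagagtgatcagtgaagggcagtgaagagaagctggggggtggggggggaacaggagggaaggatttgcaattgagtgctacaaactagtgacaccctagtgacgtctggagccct
*Irf1*, chr11:53769764-53770013, plus strand: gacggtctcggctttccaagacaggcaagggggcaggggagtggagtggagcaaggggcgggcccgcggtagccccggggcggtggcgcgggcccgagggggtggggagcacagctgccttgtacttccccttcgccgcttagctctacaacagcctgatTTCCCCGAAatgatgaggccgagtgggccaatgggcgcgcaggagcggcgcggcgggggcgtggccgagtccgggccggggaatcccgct
*Irf2*, chr8:46739495-46739554, plus strand: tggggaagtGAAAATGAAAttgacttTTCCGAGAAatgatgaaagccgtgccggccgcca
The *Irf2* stretch holds both motifs 7 bases apart, and exons of the lncRNA *Gm16675* lie in its window on the other strand. A match is a description of letters, and the stretch of *Irf7* held neither motif.

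To compare genes, CPM was divided by exon length in kilobases. Over the 17 mice, *Irf1* had the highest level at 38.2 ± 9.86 CPM per kb (SD), followed by *Irf9* at 24.3 ± 4.42, *Irf3* at 23.7 ± 4.70, *Irf7* at 19.0 ± 9.73 and *Irf2* at 17.1 ± 2.31 CPM per kb. Neighbours in this order from *Irf9* to *Irf2* had means closer than the larger of their SDs. *Irf5* at 4.54 ± 2.85 and *Irf8* at 0.804 ± 1.00 CPM per kb lay below them, and each of these steps was larger than both SDs. The IRF that marks monocyte and dendritic cell fate was thus the scarcest of these 7 transcripts in these cells. In every library *Irf1*, *Irf2*, *Irf3* and *Irf9* had at least 114 counts, whereas *Irf8* had between 0 and 147 counts, with 3 or fewer in 8 of 33 libraries.

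How far a value can be trusted differed between the members. The SD between both libraries of 1 mouse, on the log2(CPM + 1) scale over 16 mice, was 0.20 for *Irf2*, 0.30 for *Irf3*, 0.34 for *Irf9* and 0.40 for *Irf1*. For the other 3 it was 0.91 (*Irf5*), 1.11 (*Irf7*) and 1.38 (*Irf8*), against an SD between mice of a group of 0.77, 0.53 and 0.86. The value of *Irf7* rested on the mouse labelled CTL 124, whose library A held 1 count, and was 0.53 over the 15 mice without it, whereas *Irf5* and *Irf8* stayed at 0.94 and 1.20.

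**Figure D1:**
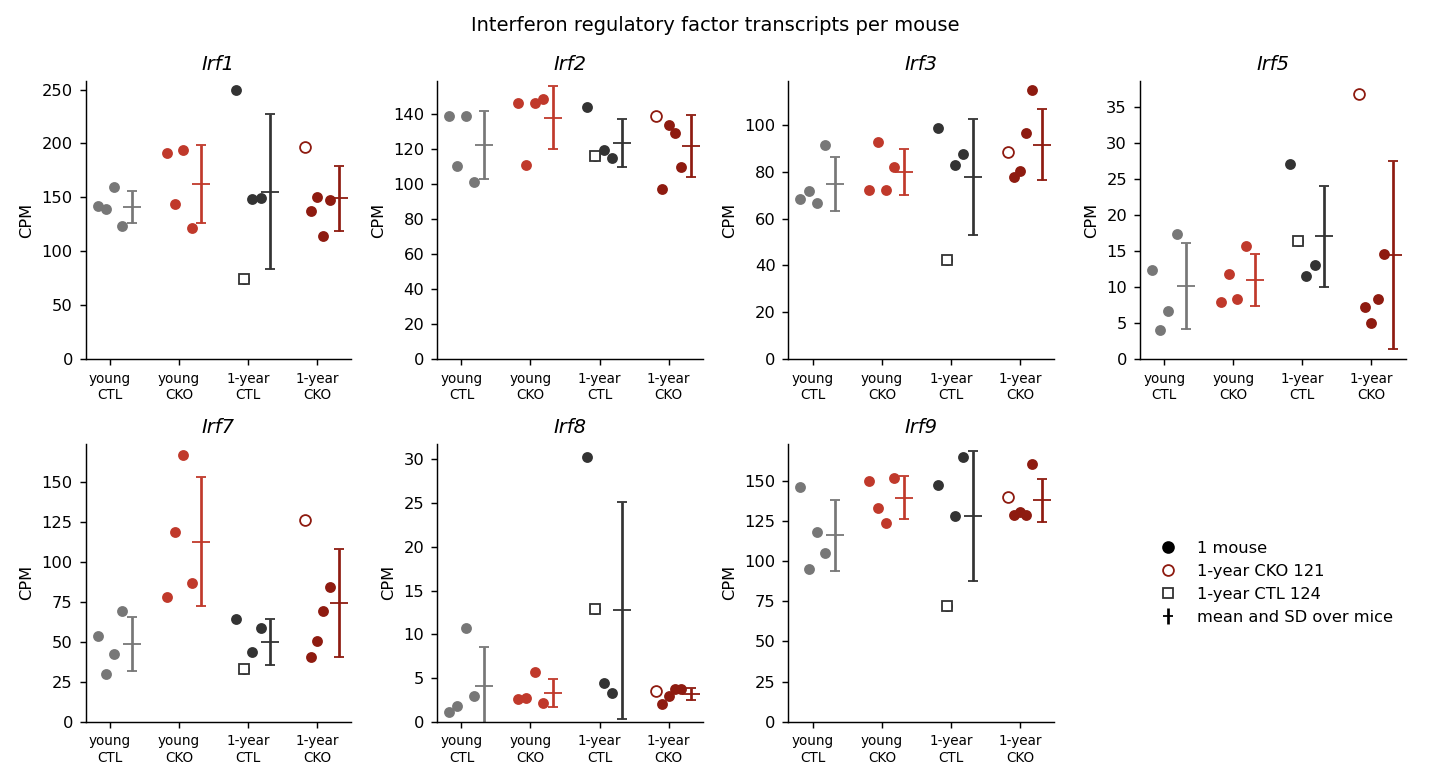
Level of each interferon regulatory factor in CPM (vertical axis, from 0) in every mouse of the 4 groups, with the mean and SD over mice beside the points (bars that pass below 0 are cut there). Young CKO mice lie above young CTL mice in Irf7 only, and open symbols mark the 1-year mice labelled CKO 121 and CTL 124, whose Ythdf2 went against their labels.

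The first comparison asked which IRF transcripts differ between CKO and CTL HSCs of young mice. *Irf7* was the one member whose groups did not overlap, 2.32-fold higher in CKO mice, and it did not pass the adjusted threshold over all genes. The other 6 had log2 fold changes between -0.35 and 0.27. None of the 7 was called at an adjusted p below 0.05 by edgeR's quasi-likelihood test, in which 0.174% of 11526 genes were called. At an unadjusted p below 0.05 there was 1 member, *Irf7*, against 7.06% of all genes, and groups apart with CKO higher were found in 2.68% of all genes. The median log2 fold change of the members was 0.18, 6 of 7 being positive, against a median of -0.000928 over all genes, of which 49.9% were positive.

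*Irf7*, the IRF that amplifies type I interferon production and is itself an interferon-induced gene, carried the largest value. It was 53.8, 29.9, 42.5 and 69.5 CPM in young CTL mice 1 to 4 and 77.8, 118.6, 167.2 and 87.0 CPM in young CKO mice 1 to 4. Every CKO mouse lay above every CTL mouse, with mouse CKO 3 the highest. The means were 112.7 ± 40.4 against 48.9 ± 16.9 CPM (SD, n = 4 each), a log2 fold difference of 1.21 (SE 0.28, adjusted p = 0.123, rank 46 of 11526 by p). Whether it was called depended on the test. The likelihood ratio test of edgeR gave an adjusted p of 0.00746 over mice and 0.00408 over libraries, and DESeq2 over mice gave 0.0042, so that each called 1 member, *Irf7*, where they called 0.581%, 0.85% and 0.669% of all genes.

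The libraries of *Irf7* differed within mice. Library A of young CKO 3 had 214.4 CPM (755 counts) and its library B 73.0 CPM (123 counts). The lowest of the 8 CKO libraries had 66.5 CPM and the highest of the 8 CTL libraries 84.8 CPM, so libraries overlapped where mice did not. Without library A of CKO 3, a setting chosen after seeing the data, the log2 fold change was 0.88 (adjusted p = 0.501 from the quasi-likelihood test), and it stayed between 0.95 and 1.42 in the 8 fits that left out 1 mouse.

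Other signals moved with genotype in the same young mice. Reads of Y-linked genes were found in 3 of 4 CTL and 1 of 4 CKO mice, and with the Y-linked level as a covariate the log2 fold change of *Irf7* was 0.87 (adjusted p = 0.516 from edgeR). The summed level of the 12 HSC markers was between 1798 and 2218 CPM in CTL and between 2316 and 2843 CPM in CKO mice, without overlap. *Ly6a*, which encodes Sca-1, is on that list, and the study reads Sca-1 protein as a proxy of interferon signaling. The summed level of 6 megakaryocyte markers, all in the table and none at 0, was between 517.2 and 868.1 CPM in CTL and between 1009 and 3134 CPM in CKO mice. That of the 10 of 11 monocyte, macrophage and dendritic markers in the table was between 768.1 and 837.3 CPM in CTL and between 782.7 and 938.2 CPM in CKO mice, with *Itgax* at 0 in both groups and *Cx3cr1* at 0 in CKO mice. For 4 of 7 B cell markers it was between 81.4 and 100.1 CPM in CTL and between 91.1 and 154.8 CPM in CKO mice. Of these, *Cd79a* and *Ms4a1* were at 0 in both groups. For 7 of 8 neutrophil markers it was between 24.4 and 44.5 CPM in CTL and between 12.7 and 30.0 CPM in CKO mice, with *Ltf* at 0 in CTL mice. The part of these signals in the *Irf7* difference was not tested, and in sorted samples fewer cells of a type and less RNA per cell cannot be told apart.

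**Figure D2:**
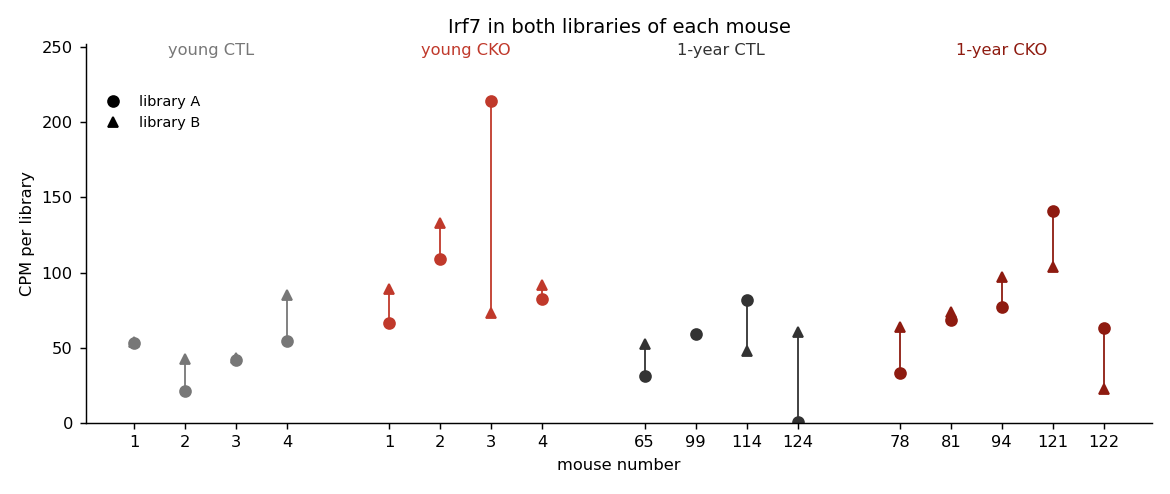
Irf7 in CPM (vertical axis, from 0) in library A (circles) and library B (triangles) of each mouse, with a line joining the libraries of 1 mouse and mice ordered by group and number. Library A of young CKO 3 stands highest at 214.4 CPM and library A of the mouse labelled 1-year CTL 124 is close to 0 (0.301 CPM), while its library B has 60.5 CPM.

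The other IRFs of nucleic acid sensing had smaller values. *Irf3*, which is made constitutively and activated by TBK1, was 79.7 ± 9.83 CPM in young CKO and 74.6 ± 11.5 CPM in young CTL mice (SD, n = 4 each; log2 fold change 0.10, SE 0.18, adjusted p = 0.961 from edgeR). *Irf5*, which acts below MyD88, was 10.9 ± 3.60 against 10.1 ± 5.97 CPM, a log2 fold difference of 0.13 with a SE of 0.48 that leaves both directions possible. *Irf5* turned to -0.24 with the Y-linked covariate and *Irf3* to -0.04.

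Among the factors below the interferon receptors, *Irf9* was 139.5 ± 13.4 CPM in young CKO and 116.2 ± 22.2 CPM in young CTL mice (SD, n = 4 each), a log2 fold difference of 0.27 (SE 0.17, adjusted p = 0.838 from edgeR). One CTL mouse, CTL 1 at 146.3 CPM, lay within the CKO range of 123.6 to 151.6 CPM. *Irf1* was between 121.5 and 193.5 CPM in CKO and between 123.5 and 159.3 CPM in CTL mice, with a log2 fold difference of 0.21 (SE 0.17, adjusted p = 0.894). *Irf2*, its counterpart, was between 110.9 and 148.5 CPM in CKO and between 101.1 and 139.1 CPM in CTL mice, with 0.18 (SE 0.17, adjusted p = 0.908). Both pairs of ranges overlapped, and both differences were smaller than the larger SD of their groups. *Irf8* was between 2.11 and 5.71 CPM in CKO and between 1.10 and 10.7 CPM in CTL mice; its log2 fold change of -0.35 had a SE of 0.74 and turned to 0.75 without mouse CTL 3.

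**Figure D3:**
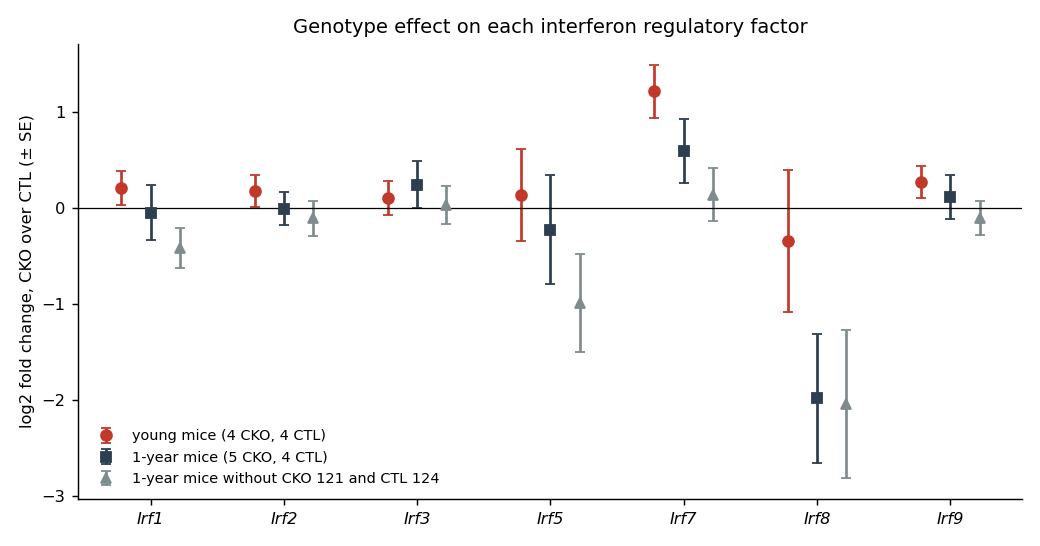
Log2 fold change of CKO over CTL (vertical axis, mean with SE from edgeR's quasi-likelihood fit) for each interferon regulatory factor in young mice (circles), 1-year mice (squares) and 1-year mice without those labelled CKO 121 and CTL 124 (triangles). Irf7 is at 1.21 in young mice and 0.14 in the reduced 1-year set, and Irf8 is at -1.98 and -2.05 in both 1-year sets.

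In 1-year mice *Irf8* had the largest difference of the 7 members, lower in CKO mice, and the difference in *Irf7* depended on the mice whose *Ythdf2* went against their labels. None of the 7 members was called by edgeR's quasi-likelihood test, as were 0% of 11961 genes, and 1 member, *Irf8*, had an unadjusted p below 0.05, against 10.1% of all genes. The likelihood ratio test over mice, that over libraries and DESeq2 called none of the members either, while they called 0.635%, 3.73% and 0.872% of all genes. The groups of mice overlapped for all 7, while 1.81% of all genes were higher and 1.67% lower in CKO mice without overlap. The median log2 fold change of the members was -0.01, with 3 positive and 4 negative, against -0.00328 over all genes. Without the mice labelled CKO 121 and CTL 124, 0.333% of 12005 genes and none of the members were called, 11.6% of all genes and again 1 member, *Irf8*, had an unadjusted p below 0.05, and the members' median was -0.11 with 2 positive.

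*Irf7* was 43.8, 58.8, 64.0 and 32.8 CPM in 1-year CTL mice 65, 99, 114 and 124 and 50.6, 69.2, 84.6, 126.4 and 40.8 CPM in 1-year CKO mice 78, 81, 94, 121 and 122. The highest value came from the mouse labelled CKO 121 and the lowest from the mouse labelled CTL 124, the animals in which *Ythdf2* went against the label. The log2 fold change was 0.59 (SE 0.33, adjusted p = 0.573 from edgeR) with them and 0.14 (SE 0.27, adjusted p = 0.903) without them. Library A of the mouse labelled CTL 124 held 1 count of *Irf7* and its library B 230 counts; without that library A the value was 0.40 (adjusted p = 0.72). Without library A of CTL 114 it was 0.70 (adjusted p = 0.526).

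*Irf8*, required for monocytes and dendritic cells and a brake on neutrophil production, was 4.48, 3.26, 30.3 and 12.9 CPM in 1-year CTL mice 65, 99, 114 and 124. It was 2.92, 3.70, 3.69, 3.51 and 2.01 CPM in 1-year CKO mice 78, 81, 94, 121 and 122. *Ythdf2* among the 1-year mice was highest in the mouse labelled CKO 121 and lowest in that labelled CTL 124. By label, the CKO mice lay within a narrow band of *Irf8*, and the CTL mice 114, 124 and 65 lay above it while CTL 99 lay inside it. The means were 3.17 ± 0.720 (SD, n = 5) against 12.7 ± 12.4 CPM (SD, n = 4), a log2 fold difference of -1.98 (SE 0.67, adjusted p = 0.387 from edgeR), and -2.05 (adjusted p = 0.32) without the mice labelled CKO 121 and CTL 124. Without mouse CTL 114 it was -1.11 (adjusted p = 0.684), the value closest to 0 of those with 1 mouse left out, and without library A of that mouse alone it was -1.06 (adjusted p = 0.64).

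The *Irf8* reads of the CTL mice came from few libraries. Library A of CTL 114 held 147 counts (55.7 CPM) and library B 16 counts (5.86 CPM), and for the mouse labelled CTL 124 the libraries held 1 and 90 counts. No library of 1-year mice labelled CKO passed 8.45 CPM, the value of library B of the mouse labelled CKO 121. The highest in the other CKO mice was 5.96 CPM. Of the 7 CTL libraries, library A of CTL 114 had the highest summed level of 7 neutrophil markers (182.3 CPM, median of the group 11.7). It also had the highest of 4 of 7 B cell markers (97.8 CPM) and of 3 of 7 T and NK cell markers (441.6 CPM). *Ms4a1* of the B list and *Klrd1* of the T and NK list were at 0 in the group. The same library was lowest in megakaryocyte (103.9 CPM) and erythroid markers (3.03 CPM, median 54.2), and its HSC markers summed to 2012 CPM (median 2866). Its sum of monocyte, macrophage and dendritic markers, 664.9 CPM, was near the group's median of 662.7 CPM, with *Fcgr1* and *Itgax* at 0 in the group. Library B of the mouse labelled CTL 124 was second in neutrophil markers (78.9 CPM) and lowest in monocyte, macrophage and dendritic markers (371.4 CPM). Library B of CKO 78 had 192.2 CPM of neutrophil markers and 5.00 CPM of *Irf8*. Over mice, the megakaryocyte markers summed to between 388.2 and 604.7 CPM in 1-year CTL mice, to 560.8 CPM in the mouse labelled CKO 121 and to between 1736 and 2084 CPM in the other 1-year CKO mice. The part of other cells in the *Irf8* difference was not tested.

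**Figure D4:**
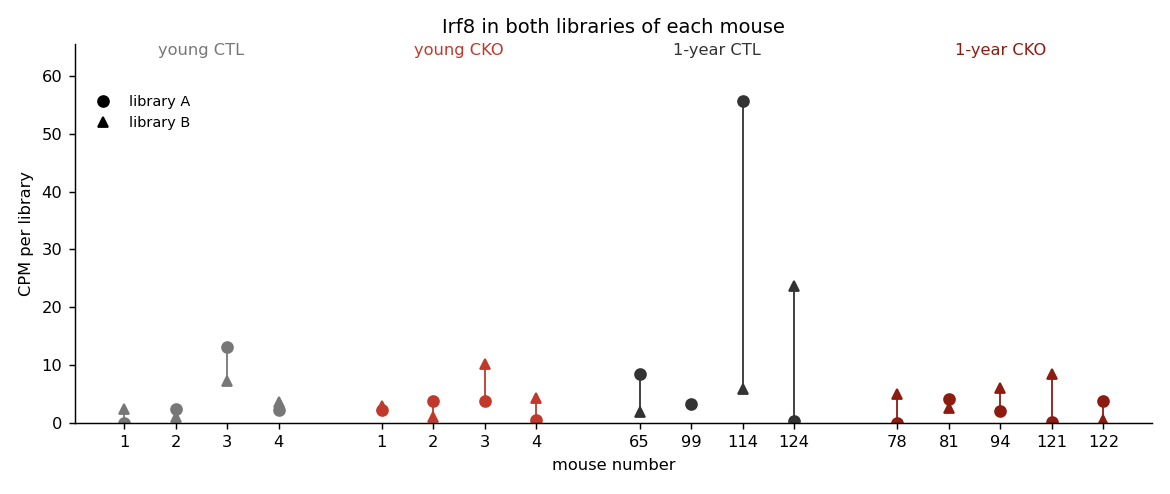
Irf8 in CPM (vertical axis, from 0) in library A (circles) and library B (triangles) of each mouse, with a line joining the libraries of 1 mouse. The tall values are single libraries, 55.7 CPM in library A of 1-year CTL 114 and 23.7 CPM in library B of the mouse labelled CTL 124. No library of 1-year mice labelled CKO is above 8.45 CPM, the value of library B of the mouse labelled CKO 121.

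*Irf5* was 11.6, 13.1, 27.1 and 16.3 CPM in 1-year CTL mice 65, 99, 114 and 124 and 4.97, 8.38, 14.6, 36.8 and 7.19 CPM in 1-year CKO mice 78, 81, 94, 121 and 122. The mouse labelled CKO 121 was the highest, with 40.6 and 30.9 CPM in its libraries, and library B of CTL 114 had 37.3 CPM. With all mice the log2 fold change was -0.23 (SE 0.57, adjusted p = 0.932 from edgeR), and without the mice labelled CKO 121 and CTL 124 it was -0.99 (SE 0.51, adjusted p = 0.483). CTL 114 had the highest level of *Irf1* (249.2 CPM), *Irf2* (144.2 CPM) and *Irf8* among the 9 mice of 1 year, and the mouse labelled CTL 124 the lowest of *Irf1* (74.0 CPM), *Irf3* (42.1 CPM), *Irf7* and *Irf9* (71.9 CPM).

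In the interferon-receptor branch the value of *Irf1* depended on single control mice. *Irf1* was 155.4 ± 71.9 CPM in CTL (SD, n = 4) and 149.2 ± 30.1 CPM in CKO mice (SD, n = 5), a log2 fold difference of -0.05 (SE 0.28, adjusted p = 0.969 from edgeR) that was 0.26 without CTL 114 and -0.30 without the mouse labelled CTL 124. Without both mice labelled CKO 121 and CTL 124 it was -0.42 (SE 0.21, adjusted p = 0.464), with 137.4 ± 16.5 CPM in CKO (SD, n = 4) and 182.6 ± 57.7 CPM in CTL mice (SD, n = 3). *Irf9* was 137.9 ± 13.6 CPM in CKO and 128.1 ± 40.4 CPM in CTL mice, and its value of 0.11 turned to -0.11 without the mice labelled CKO 121 and CTL 124. *Irf3* was 91.6 ± 15.1 against 77.8 ± 24.7 CPM, with 0.24 (SE 0.25), which was 0.03 without those mice. *Irf2*, the member with the smallest SE over all 9 mice, was at 121.7 ± 17.5 against 123.5 ± 13.9 CPM with a log2 fold difference of -0.01 (SE 0.17), or -0.11 (SE 0.18) without those mice. For these 4 members the log2 fold changes over all 9 mice were no larger than their SEs, and without those mice that of *Irf1* was larger than its SE.

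Whether the genotype effect differs between ages was tested as an interaction over all 17 mice. No member was called, 0% of 12352 genes were, and no member had an unadjusted p below 0.05, against 4.76% of all genes. The likelihood ratio test over mice called none of the members either. The difference of the log2 fold changes, 1-year minus young, was -0.62 for *Irf7* (SE 0.46, adjusted p = 0.999 from edgeR) and -1.65 for *Irf8* (SE 1.03, adjusted p = 0.999). Without the mice labelled CKO 121 and CTL 124 it was -1.07 for *Irf7* (SE 0.41, adjusted p = 0.617), -0.62 for *Irf1* (SE 0.28, adjusted p = 0.702) and -1.70 for *Irf8* (SE 1.118, adjusted p = 0.857). In that fit 2 members, *Irf1* and *Irf7*, had an unadjusted p below 0.05, against 6.71% of all genes, and none was called. The difference in *Irf7* between CKO and CTL was thus not shown to be larger in young than in 1-year mice.

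Between control mice, 1-year against young, the larger values belonged to the scarce members *Irf8* and *Irf5*, and this comparison is also one between runs. The control groups also differed in Y-linked reads. These summed to 321.5, 271.2, 328.9 and 0 CPM in young CTL mice 1 to 4. In 1-year CTL mice 65, 99, 114 and 124 they summed to 0, 208.9, 0.186 and 0 CPM. None of the members was called, against 14.8% of 12352 genes, and 1, *Irf8*, had an unadjusted p below 0.05, against 29.9% of all genes. *Irf8* was 3.05-fold higher at 1 year (log2 fold change 1.61, SE 0.76, adjusted p = 0.157 from edgeR), 0.73 on the log2 scale without CTL 114 and 2.69 (adjusted p = 0.0446) without young CTL 3, the fit in which it was called. *Irf5* had 0.76 (SE 0.57, adjusted p = 0.39). The other 5 were between 0.02 and 0.15, against a median of 0.11 over all genes. Without the mouse labelled CTL 124, *Irf1* was 0.37, *Irf9* 0.33, *Irf3* 0.27, *Irf7* 0.18 and *Irf2* 0.045, while *Irf8* was 1.60 and *Irf5* 0.78, and none was called. *Irf7* was 49.8 ± 14.3 CPM in 1-year and 48.9 ± 16.9 CPM in young CTL mice (SD, n = 4 each).

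How members followed each other from mouse to mouse rested in part on the mice whose *Ythdf2* went against their labels. Over the 17 mice, with the mean of each age removed, Pearson's r of log2 CPM between pairs of members was highest for *Irf3* with *Irf9* at 0.70, but this was 0.93 within the 9 mice of 1 year, 0.60 in the 7 of them without the mice labelled CKO 121 and CTL 124, and -0.05 within the 8 young mice. Next was *Irf1* with *Irf9* at 0.62, which was 0.77 at 1 year, 0.34 there without those mice and 0.19 in young mice. Other pairs went the other way at 1 year without those mice. *Irf3* with *Irf7* went from 0.69 to 0.95, and *Irf1* with *Irf8* from 0.14 to 0.88. *Irf7* had r = 0.52 with *Irf3*, 0.52 with *Irf9*, 0.49 with *Irf5*, 0.44 with *Irf1*, 0.34 with *Irf2* and 0.00407 with *Irf8*. The points share runs, genotype and depth, and the values are descriptions.

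Searched over 12352 genes in the same way, the genes most like *Irf7* were *Ifit1bl1*, of the Ifit family of interferon-induced genes (r = 0.87 over 17 mice, 0.90 young, 0.80 at 1 year), *Zbp1*, an interferon-induced sensor of left-handed nucleic acid (0.80, 0.92, 0.58), and the zinc finger gene *Zfp46* (0.80, 0.96, 0.49). Those most like *Irf9* were *B3galt4* (0.92), *Pik3ip1* (0.90) and *Efna4* (0.89), with r of at least 0.88 within each age for all 3, and of 0.43, 0.72 and 0.40 at 1 year without the mice labelled CKO 121 and CTL 124. *Irf1* was followed by *Fam174a* (0.88), *Cacna1a* (0.86) and *Glipr1* (0.85), and *Irf2* by *Arhgap9* (0.76), *Tnk1* (0.74) and *Galnt5* (0.74). *Irf3* was followed by *Hsh2d* (0.89), *Dhodh* (0.88) and *9530027J09Rik* (0.88), *Irf5* by *Tespa1* (0.89), *Arl6ip4* (0.86) and *Klf6* (0.80), and *Irf8* by *Gpatch11* (0.80) and *Rmnd5a* (0.79). Of these, *Fam174a*, *Dhodh*, *Klf6* and *Rmnd5a* had r of 0.52, 0.54, 0.49 and 0.50 within the young mice and of 0.96, 0.93, 0.92 and 0.91 within those of 1 year. Without the same 2 mice, r at 1 year was 0.66 for *Ifit1bl1*, 0.23 for *Zbp1* and 0.37 for *Zfp46* with *Irf7*, and between 0.53 and 0.62 for the 3 genes most like *Irf3*. These are the highest of 12352 values and were chosen for their height.

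Around the family, 5 gene lists describe the steps before and after an IRF. Of the sensors, adaptors and kinases that activate IRFs, 19 of 24 were tested in young mice, none was called, and the median log2 fold change was -0.02. Those with the smallest p were *Tank* (0.52) and *Tbk1* (0.36), which encode a scaffold and the kinase that phosphorylates IRF3, both with an adjusted p of at least 0.512 from edgeR. In 1-year mice the list had a median of 0.11, or 0.02 without the mice labelled CKO 121 and CTL 124, with none called in either. There the smallest p belonged to *Trim56* (-2.04, adjusted p = 0.398, and -0.89 without those mice), a ubiquitin ligase of the STING pathway, and *Myd88* (0.66, adjusted p = 0.453), the Toll-like receptor adaptor, which was 123.8 ± 5.96 CPM in CKO and 78.5 ± 34.3 CPM in CTL mice without overlap, and had 0.40 (adjusted p = 0.45) without those mice. Of all genes, 1.81% were higher and 1.67% lower in 1-year CKO mice without overlap.

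Of the partners and co-regulators, 17 of 19 were tested in young and 18 in 1-year mice, and none was called in either. *Batf*, a basic leucine zipper factor that binds DNA together with IRF8 or IRF4, was 124.7 ± 11.1 CPM in young CKO and 81.2 ± 8.71 CPM in young CTL mice (SD, n = 4 each), a log2 fold difference of 0.62 (adjusted p = 0.217 from edgeR) with no overlap. *Trim21*, a ubiquitin ligase that targets IRFs, had 0.56 (adjusted p = 0.642). In 1-year mice *Ep300*, the acetyltransferase p300, was 34.8 ± 7.18 CPM in CKO and 82.2 ± 16.9 CPM in CTL mice (-1.23, adjusted p = 0.205), and *Rela*, the NF-κB subunit p65, was 167.8 ± 8.42 against 115.4 ± 9.57 CPM (0.55, adjusted p = 0.312), both without overlap. Without the mice labelled CKO 121 and CTL 124 these were -1.005 (adjusted p = 0.0753) and 0.50 (adjusted p = 0.243). The list medians were -0.06 in young and -0.05 in 1-year mice, and 0.048 in 1-year mice without those.

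Among the genes that IRFs switch on, 3 interferon-γ targets and no ISRE-type gene were called in young mice. An unadjusted p below 0.05 was found for 15 of 36 ISRE-type genes and 12 of 29 interferon-γ targets, each higher in CKO mice, against 4.26% of all genes in that direction, and the difference between the lists was not tested. In 1-year mice the interferon-γ targets had 2 higher and 1 lower at that level, against 4.45% and 5.65% of all genes, and 1 higher and 10 lower without the mice labelled CKO 121 and CTL 124, against 5.53% and 6.05%. The ISRE-type genes had 9 higher and 2 lower there, and 5 and 2 without those mice. All 36 ISRE-type interferon-stimulated genes, those bound by the IRF9 complex and IRF7, were tested in young mice, 30 had positive values, none was called, and the median log2 fold change was 0.52 against -0.000928 over all genes. *Rtp4* (1.05, adjusted p = 0.284 from edgeR) and *Samhd1* (0.76, adjusted p = 0.286), a nucleotide hydrolase that restricts viruses, had the smallest p. In 1-year mice the list had 23 of 35 positive and a median of 0.32 with none called, and a median of 0.02 without the mice labelled CKO 121 and CTL 124. There *Parp14* had -0.98 (adjusted p = 0.324) and the 2'-5' oligoadenylate synthetase gene *Oas1g* 1.30 (adjusted p = 0.38), with the groups apart in both, and -0.85 and 1.33 without those mice.

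Among 29 IRF1-type interferon-γ targets, 3 rose in young CKO mice, where 0.174% of all genes were called. *Igtp*, a GTPase of the immunity-related family, went from 115.0 ± 16.4 to 231.9 ± 29.1 CPM (log2 fold change 1.02, adjusted p = 0.0145 from edgeR), its relative *Irgm1* from 217.3 ± 29.0 to 367.9 ± 32.1 CPM (0.76, adjusted p = 0.0406) and the guanylate-binding protein gene *Gbp6* from 6.07 ± 4.01 to 33.7 ± 9.73 CPM (2.46, adjusted p = 0.0406; SD, n = 4 each). In the 8 fits with 1 mouse left out all 3 were called in 1 (without CKO 3) and none in 4 (without CKO 1, CTL 1, CTL 2 or CTL 3). All 3 were called by the likelihood ratio tests over mice and over libraries, by DESeq2 over mice, with its size factors and without a count filter. With the mouse number as a block 2 were called. None was called without library A of CKO 3, with the Y-linked covariate or with all 17 mice in 1 fit, and the 3 log2 fold changes were positive in each of these fits. Reads of such families can be split between similar genes. The list's median was 0.29 in young mice with 22 of 29 positive, whereas *Irf1* itself was at 0.21. In 1-year mice its median was -0.10, with 11 of 29 positive and none called, and -0.44 with 4 of 29 positive without the mice labelled CKO 121 and CTL 124; *Casp1* (-0.65, adjusted p = 0.329) and *Cd274* (1.05, adjusted p = 0.417) had the smallest p over all mice and -0.67 and 0.90 without those. Part of both lists belongs to gene groups that the study picked on these libraries, so their direction is not independent evidence.

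The last list held genes linked to IRF8 in myeloid and dendritic cells, of which 10 of 15 were tested in young and 12 in 1-year mice, with none called. Its median was -0.02 in young and -0.27 in 1-year mice, where 9 of 12 were negative; without the mice labelled CKO 121 and CTL 124 it was -0.29 with 7 of 12 negative. *Flt3*, the receptor of lymphoid and dendritic progenitors, was 17.7 ± 9.62 CPM in 1-year CKO and 46.6 ± 37.9 CPM in 1-year CTL mice (-1.39, adjusted p = 0.398 from edgeR, and -1.93, adjusted p = 0.121, without those mice). In young mice *Ctsc* had 0.41 (adjusted p = 0.539) and *Cst3* -0.23 (adjusted p = 0.831).

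**Figure D5:**
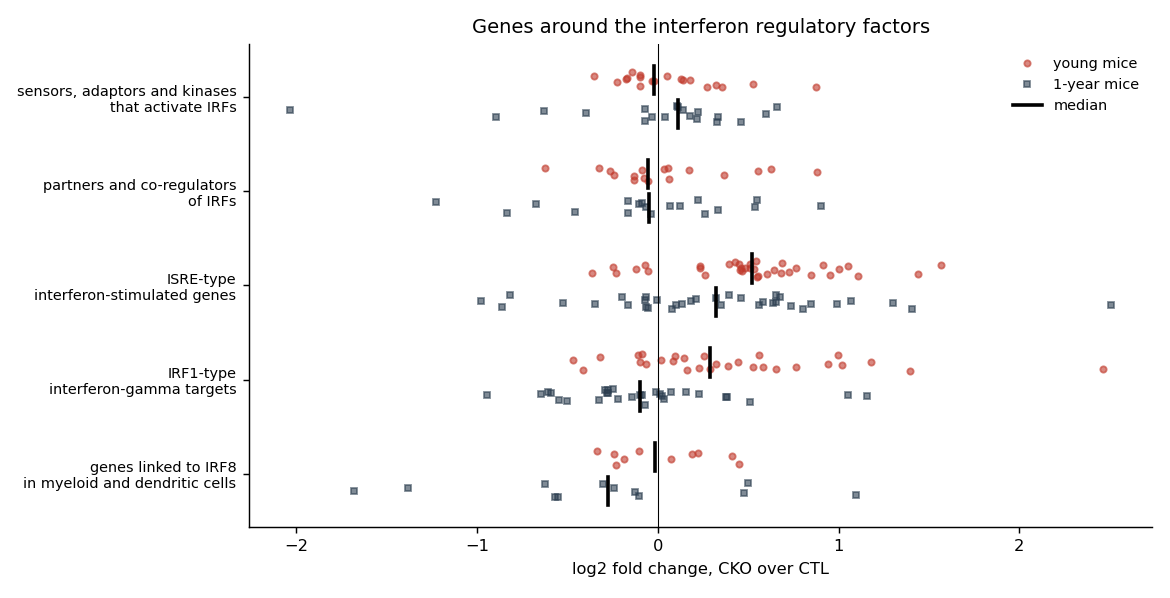
Log2 fold change of CKO over CTL (horizontal axis) for each tested gene of 5 lists around the interferon regulatory factors, in young mice (circles) and 1-year mice (squares), with the median of each as a black bar; vertical scatter within a row carries no value. The median of the ISRE-type genes is 0.52 in young and 0.32 in 1-year mice, that of the interferon-γ targets 0.29 and -0.10.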

How the data were processed

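Reads had been aligned by the authors to GRCm38 (mm10) using HISAT2 and assigned to genes by Rsubread; they deposited whole-number counts per gene and library, without normalization, for 34 libraries; the annotation and the use of strand are not given in the sources used here. CTL 99 B was left out as the authors did. Counts were then summed over both libraries of each mouse, which was the replicate. In R 4.3.3 with edgeR 4.0.16, genes passed filterByExpr (minimum count 10, minimum total 15), were TMM-scaled and compared by quasi-likelihood F tests, with p-values adjusted after Benjamini-Hochberg over all genes tested and calls at 0.05. Young and 1-year mice were fitted apart; the interaction and the age comparison used all 17 mice. The study itself used likelihood ratio tests. Standard errors on the log2 scale were the size of the fold change over the root of F. Correlations used log2 CPM with a prior count of 2. No molecular identifiers were used, so a floor of 3 counts (between 0.385 and 1.61 CPM per library) covers counting error only. Exon lengths came from GENCODE M21. The code was tested on simulated data. The members, gene lists and marker lists were chosen with earlier results of these data known. Named are all 7 members, up to 3 genes most like each, and in each list the genes called in a genotype comparison or otherwise up to 2 with the smallest p at each age. Alternatives were likelihood ratio tests over mice or libraries, DESeq2 1.42.0 and its size factors, no count filter, a Y-linked covariate, all mice in 1 fit, a replicate block, and mice or libraries left out. Results for some genes that fall under this rule or belong to the family are not reported here.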

Additional observations from a re-analysis of the deposited data

Results flagged for a closer look

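In groups of 4 or 5 mice, each member was examined for 1 mouse far from its group, which gave 28 groups, and chance alone flags about 1 in 20. There were 2 such mice, both in *Irf2*, the member with the smallest spread. Young CKO 2 had 110.9 CPM of *Irf2*, whereas the nearest of the other young CKO mice had 146.1 CPM, and 1-year CTL 114 had 144.2 CPM, whereas the nearest of the other 1-year CTL mice had 119.4 CPM. Without young CKO 2 the log2 fold change of *Irf2* in young mice was 0.27.

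A signal also appeared in the library that was left out of all comparisons. CTL 99 B held 27 counts of *Irf8* among 187034, which is 144.4 CPM without TMM scaling (95% exact Poisson interval 95.1 to 210.0, counting error only). The other 7 libraries of 1-year CTL mice had between 0.296 and 56.3 CPM on that scale, and library A of the same mouse held 8 counts, 3.61 CPM. In that library *Irf3* had 0 counts, which by the floor of 3 counts allows up to 16.0 CPM, and *Irf7* had 3 counts.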

How the results depend on the processing

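Among the settings named above, the number of members called was 0 in every comparison except in young mice, where it was 1 (*Irf7*) with the likelihood ratio test over libraries, that over mice and DESeq2 over mice, and in the age comparison, where it was between 0 and 1 with a mouse left out. In young mice 20 genes were called, 90, 67 and 77 by those 3 tests, 2 with the Y-linked covariate, 1 with all 17 mice in 1 fit, 0 without library A of CKO 3 and between 0 and 18 with a mouse left out. In 1-year mice 0 genes were called, 420, 76 and 104 by those tests, 5 with all 17 mice in 1 fit, 40 without the mice labelled CKO 121 and CTL 124 and between 0 and 16 with a mouse left out. The interaction went from 0 to 4 genes with the likelihood ratio test, 15 without those mice and between 0 and 2 with a mouse left out, and the age comparison from 1825 genes to between 896 and 2048. The causes were not tested.

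Values near 0 changed sign. In young mice the Y-linked covariate gave -0.0381 for *Irf3* and -0.24 for *Irf5*, and leaving out library A of CKO 3 gave -0.11 for *Irf5*. In 1-year mice *Irf9* was -0.11 without the mice labelled CKO 121 and CTL 124, *Irf2* 0.0147 without library A of CTL 124, and *Irf1* 0.0557 without library A of CTL 114; the interaction of *Irf3* was -0.0644 without those mice, and in the age comparison the Y-linked covariate gave -0.00935 for *Irf3* and -0.15 for *Irf7*. With a mouse left out, young values ran from -0.13 to 0.52 for *Irf5* and -0.75 to 0.75 for *Irf8*. The 1-year values ran from -0.30 to 0.26 for *Irf1*, -0.0647 to 0.0636 for *Irf2*, -0.95 to 0.081 for *Irf5* and -0.10 to 0.25 for *Irf9*. The interaction ran from -0.50 to 0.0653 for *Irf1* and -0.0687 to 0.28 for *Irf3*. The age comparison ran from -0.19 to 0.37 for *Irf1*, -0.0691 to 0.0889 for *Irf2*, -0.0796 to 0.27 for *Irf3*, -0.16 to 0.24 for *Irf7* and -0.00575 to 0.33 for *Irf9*.

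Young mice of both genotypes share numbers, but their deviations had correlations of 0.05, -0.02, 0.04 and 0.01 over genes, so the numbers were not taken as pairs. With the mouse number as a replicate block, 14 genes and 0 members were called, *Irf7* was 1.21 (adjusted p = 0.25 from edgeR) and *Irf8* 0.0551, the one member that changed sign. With the library letter as a replicate block in 1-year mice, libraries being samples, 32 genes and 0 members were called. *Irf8* was too scarce to be tested over the libraries of young mice. Counts limit *Irf8*, with 3 or fewer in 8 of 33 libraries, against 1 library each for *Irf5* and *Irf7*.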

Other observations

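In several mice the libraries differed in more than 1 member, and 3 examples follow, chosen after their values were seen. In library A of the 1-year mouse labelled CTL 124, *Irf7* and *Irf8* were both at 1 count, whereas library B held 230 and 90 counts of them, and *Irf1* went the other way with 319 counts in A and 203 in B. In young CKO 3, library A held 755 counts of *Irf7* and 43 of *Irf5*, and library B held 123 and 1. In 1-year CKO 78, *Irf1* was 93.4 CPM in A and 193.9 CPM in B, and *Irf7* was 32.8 and 64.0 CPM. The summed level of the megakaryocyte markers in young CKO 3 was 1681 CPM in A and 6252 CPM in B, the highest of all young libraries. What the libraries of a mouse did not share was not tested.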
